A study of Aegilops tauschii x Triticum turgidum and Aegilops tauschii and Triticum turgidum subsp. durum with 18 samples.

Results

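In 65 gene clusters of the wheat array, probe sets of the same cluster had opposite parental bias: at least 1 was far higher in the tetraploid parent and at least 1 was far higher in both diploid parents. The biased probe sets were chosen from the parents' mean log2 values. A Joyau-high probe set was 3 or more higher in Joyau than in both Ae36 and Ae54, and an Ae-high probe set was 3 or more lower in Joyau than in both. A cluster is the probe set name up to its first number, such as Ta.6572. Of 61179 probe sets that are not array controls, 184 were members, 101 of them Joyau-high and 83 Ae-high. They made up 6.84% of the 1477 Joyau-high and 9.47% of the 876 Ae-high probe sets on the array, and their clusters made up 0.735% of the 8842 clusters with 2 or more probe sets.

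RNA from whole plants of 40 days was measured on 18 arrays in 9 groups of 2. The synthetic hexaploids came from crosses of Triticum turgidum cv Joyau with Aegilops tauschii. S0_36 plants (numbers 3 and 9) had as diploid parent ssp. strangulata accession 36, at generation 0 of selfing. S0_54 plants (numbers 3 and 4) and S1_54 plants (numbers 5 and 7) had ssp. tauschii accession 54, at generations 0 and 1. Courtot is a natural hexaploid, Triticum aestivum. The RNA mixes, mix36 and mix54, held equal amounts of RNA from Joyau and from accession 36 or 54. The parental groups were Joyau, Ae36 and Ae54. All plants grew untreated in pots under a 16 h photoperiod at 24 °C. The labels give every sample the genotype hexaploid, the diploids and the tetraploid included, and call the arrays of each group but the mixes biological replicates. The data hold 1 tetraploid cultivar, 2 diploid accessions and 1 natural hexaploid.

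Bread wheat joins the genomes A, B and D, of which a tetraploid wheat gave A and B and Aegilops tauschii gave D. Copies of the same ancestral gene on these genomes, called homoeologues, can carry sequence differences. An Affymetrix probe set is a group of short probes designed to an expressed sequence, and names that begin with Ta. follow clusters of similar wheat sequences, so that copies from different genomes can share a cluster. A probe set that matches the copy of one genome better reports mainly on that copy. Whether a low value in a parent came from fewer transcripts or from a poorer match of the probes cannot be told apart here. In whole plants, fewer cells of a type and less RNA per cell cannot be told apart either.

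One label conflict touches the choice of members. Ae54 replicate 1 carries the hybrid's species names and a protocol entry that names mix54, and it was grouped by its description. On the Joyau-high side its median log2 value was 3.25, beside 3.12 on Ae54 replicate 2 and 8.56 and 8.41 on the Joyau arrays. On the Ae-high side its median was 9.53, beside 9.48 on Ae54 replicate 2 and 3.34 and 3.44 on the Joyau arrays. The array was thus near its own group on both sides. It also helped to choose the members, so these medians cannot test its label. Without this array, 66 clusters met the rule, 63 of them among the 65. On Ae36 replicate 1 the 3' minus 5' difference of the GAPDH control was -1.11, outside the range of -0.32 to -0.19 on the other arrays, and without it 63 clusters met the rule, all among the 65. Without Joyau replicate 2, 73 did, 64 of them shared. Array medians lay between 2.86 and 3.04, and 11895 to 14132 probe sets of an array were at 5 or more. Of 19 marker symbols for leaf, root and seed, 3 were in the probe table. The leaf gene petC, which encodes the Rieske protein of the photosynthetic electron chain, was at 13.18 to 14.07 in the 9 groups on its brighter probe set and at 2.38 to 2.70 on the other. On their brighter probe sets FBP was at 9.30 to 10.85 and CAT1, a catalase gene, at 10.03 to 12.89. CAT1 was lower in the synthetics, at means of 10.03 in S0_36, 10.88 in S0_54 and 10.22 in S1_54, against 12.21 in mix36 and 12.64 in mix54 (limma, adjusted p = 0.00105, 0.00474 and 0.000687 against their mixes), and averaged 12.44 in Courtot. The part of this in the differences between synthetics and mixes was not tested.

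The clusters were small: they held 2 to 39 probe sets, with a median of 4, and 34 of the 65 had 1 member on each side. The 184 members stood for 156 designed sequences. Of the members, 56 shared their sequence name with another member and differed from it in the suffix, so members of a cluster are not independent. Ta.30790.1 was the 1 sequence name with members on both sides, Ta.30790.1.S1_a_at as Ae-high and Ta.30790.1.S1_at as Joyau-high. Probe sets with the suffix x_at hold probes that may also match other transcripts. They made up 28.7% of the Joyau-high and 25.3% of the Ae-high members, beside 11.1% of all probe sets. Of the clusters' other 167 probe sets, 60 were below 5 on every array and 87 differed by less than 1 between Joyau and both diploid parents. Joyau was 1 or more higher than both on 33 of them and 1 or more lower on 27.

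The bias that chose the members, the smaller of the differences from Ae36 and Ae54, had a median of 4.9 and a maximum of 11.02 on the Joyau-high side, and a median of 5.07 and a maximum of 10.41 on the Ae-high side. The members nearest to the threshold were Ta.5257.2.S1_x_at (3.01) and Ta.920.3.S1_at (3.03) among the Joyau-high and Ta.30790.1.S1_a_at (3.01) and Ta.28553.12.S1_x_at (3.12) among the Ae-high. In the same clusters Ta.28553.13.S1_x_at (2.90) and Ta.5469.1.S1_at (2.87) fell just short on the Joyau-high side. Ta.9195.1.A1_x_at, which lies under 3 before rounding to 3.00, and Ta.2434.1.A1_x_at (2.96) did so on the Ae-high side. These values made the selection and are a description.

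**Figure D1:**
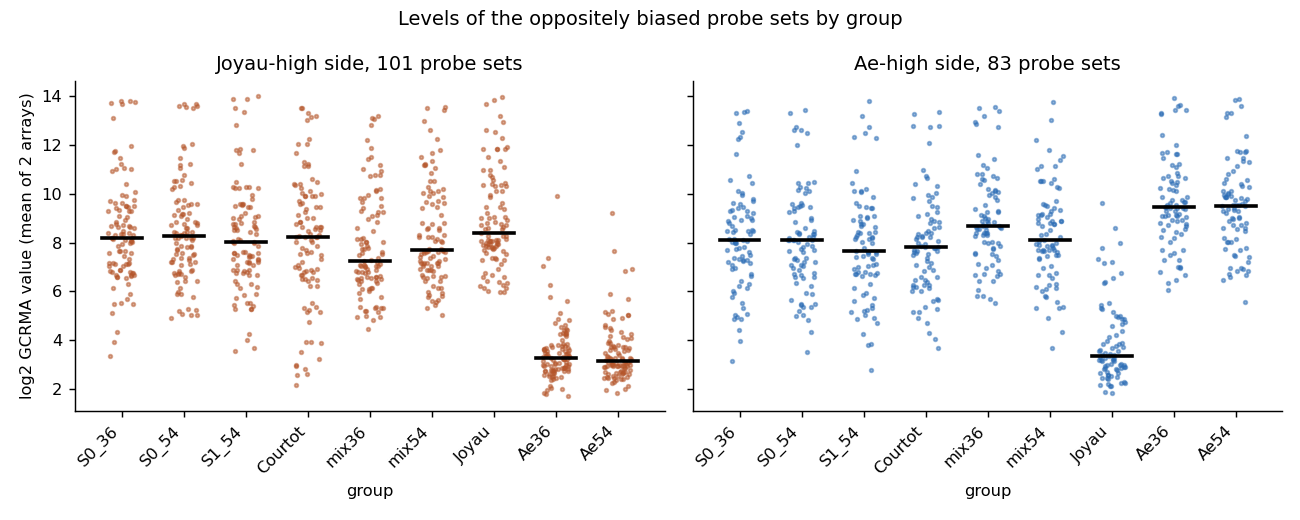
Mean log2 GCRMA value of each member (points) in each of the 9 groups, with the median over members as a black bar. On the Joyau-high side the hexaploids had medians of 8.01 to 8.27, above both mixes at 7.25 and 7.69, and on the Ae-high side of 7.63 to 8.11, with the mixes at 8.66 and 8.12.

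The median member of either side read between 7.63 and 8.27 in the hexaploids, while single members were as low as 2.16 on the Joyau-high side (Courtot) and 2.81 on the Ae-high side (S1_54). The Joyau-high side had medians of 8.20 in S0_36, 8.27 in S0_54, 8.01 in S1_54 and 8.24 in Courtot, against 7.25 in mix36, 7.69 in mix54, 8.39 in Joyau, 3.29 in Ae36 and 3.18 in Ae54. The Ae-high side had medians of 8.11 in S0_36, 8.09 in S0_54, 7.63 in S1_54 and 7.80 in Courtot, against 8.66 in mix36, 8.12 in mix54, 3.35 in Joyau, 9.45 in Ae36 and 9.49 in Ae54. The plot of levels by group shows the hexaploids near the high parent on the Joyau-high side and between the parents on the Ae-high side. All 184 members passed the filter on low values, which a member can pass through its high parent alone.

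Each member was also placed between its parents on the linear scale, as the percentage of the way from its low to its high parent. This measure uses the parental arrays that chose the members and is given without a test. On the Joyau-high side the median member stood at 71.5% and 62.5% on the S0_36 arrays, 69.7% and 67% in S0_54, 56.4% and 62.6% in S1_54 and 54.2% and 63.4% in Courtot, against 44.6% and 45.5% in mix36 and 65.1% and 64.1% in mix54. On the Ae-high side it stood at 36.6% and 34.7% in S0_36, 40.3% and 34.3% in S0_54, 28.5% and 30.7% in S1_54 and 30.3% and 36.1% in Courtot, against 63.4% and 64% in mix36 and 49.5% and 51.7% in mix54. On each of the 8 hexaploid arrays the median of the Joyau-high side was above 50% and that of the Ae-high side below 50%. On the mix36 arrays it was the other way round. Mix54 replicate 1 had the hexaploids' pattern, at 65.1% and 49.5%. On mix54 replicate 2 both medians were above 50%, at 64.1% and 51.7%. The quartiles of the Ae-high side were wider in mix54, from 27% to 80.3% over its arrays, than in mix36, from 51.5% to 76.2%.

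**Figure D2:**
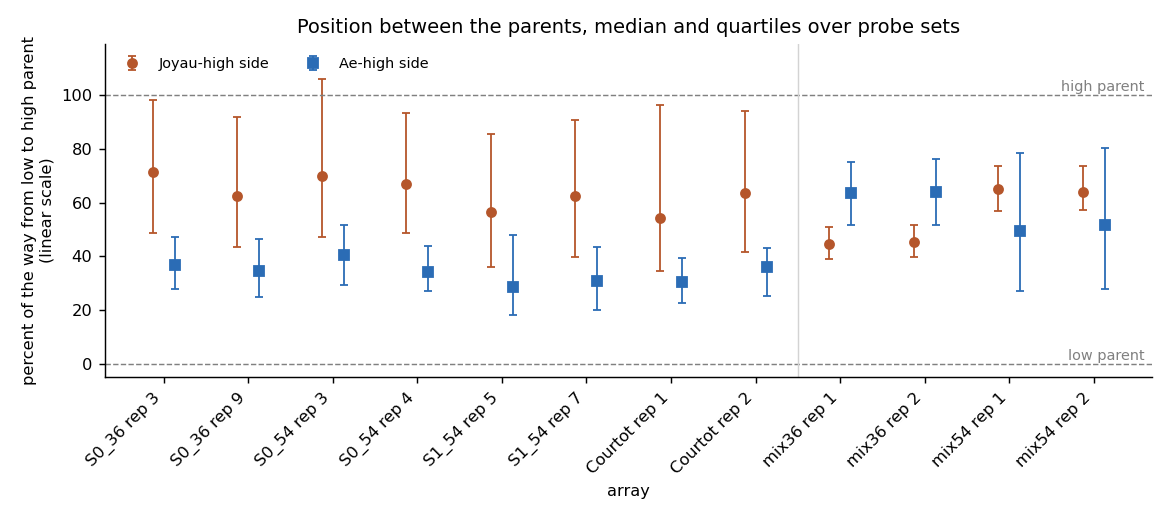
Position of members between their low parent (0%) and high parent (100%) on each array, as median (points) and quartiles (bars) over 101 Joyau-high (orange) and 83 Ae-high (blue) probe sets. The sides are apart on the 8 hexaploid arrays, with Joyau-high medians at 54.2% or more and Ae-high medians at 40.3% or less, and cross over on the mix36 arrays. Joyau-high is also above Ae-high on the mix54 arrays, at 65.1% against 49.5% (replicate 1) and 64.1% against 51.7% (replicate 2).

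The comparison of S0_36 with mix36 asks whether the synthetic departed from an equal mix of its parents' RNA. The sides moved apart. Of the 101 Joyau-high members, 21 were higher in S0_36 and 4 lower (limma, adjusted p under 0.05), against 6.28% higher and 6.7% lower of all 18189 probe sets tested. Of the 83 Ae-high members, 0 were higher and 27 lower, and at an unadjusted p under 0.05 limma counted 2 higher and 51 lower. The median difference was 0.57 on the Joyau-high side and -0.88 on the Ae-high side, beside -0.14 over all tested. Joyau-high probe sets of other clusters were higher in 10.4% and lower in 11.1%, with a median of 0.18. Ae-high probe sets of other clusters were higher in 3.78% and lower in 26.2%, with a median of -0.83. When each array was left out in turn, 11 of the 21 Joyau-high rises, 3 of the 4 Joyau-high falls and 8 of the 27 Ae-high falls held every time. The 52 calls became 30 without S0_36 replicate 3 and 27 without S0_36 replicate 9.

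Some Joyau-high members rose above both parents. Ta.30807.1.S1_at had log2 values of 13.86 and 13.74 in S0_36, against 9.05 and 9.18 in mix36, 10.22 and 9.96 in Joyau and 3.98 and 3.15 in Ae36. It rose by 4.68 ± 0.35 against mix36 (SE, adjusted p = 2.83e-05). Ta.28394.1.S1_s_at had 13.93 and 13.63 in S0_36, against 9.05 and 9.14 in mix36, 9.96 and 10.24 in Joyau and 5.84 and 3.89 in Ae36. Both were higher in the S0_36 plants than on any array of mix36, Joyau or Ae36. The rise of Ta.28394.1.S1_s_at was 4.68 ± 0.60 (SE, adjusted p = 0.000737). Ta.28394.1.S1_a_at, of the same designed sequence but not a member, was lower in Joyau, at a mean of 9.43 against 12.58 in Ae36. It averaged 12.24 in S0_36 and 11.90 in mix36. Ta.920.3.S1_at, at 9.45 and 9.12 in S0_36 and 5.29 and 5.45 in mix36, rose by 3.91 ± 0.45 (SE, adjusted p = 0.000405). Joyau was at 6.19 and 6.53, so this member too was above its high parent.

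The Ae-high members of these clusters did not pass. Ta.30807.3.S1_at was at 13.31 and 13.25 in S0_36 and 13.14 and 13.16 in mix36, a difference of 0.13 ± 0.24 (SE, adjusted p = 0.795). Ta.28394.3.S1_x_at was at 12.99 and 12.80 in S0_36 and 12.94 and 12.91 in mix36, a difference of -0.03 ± 0.33 (SE, adjusted p = 0.976). The Ae-high members of Ta.920 had differences of 0.20, 0.50 and 0.42. In these clusters the sides drew apart through the Joyau-high probe set.

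In other clusters both sides passed, in opposite directions. Ta.7999.2.S1_at, Joyau-high, was at 9.12 and 8.94 in S0_36, against 6.43 and 6.25 in mix36, 7.51 and 7.25 in Joyau and 3.70 and 3.87 in Ae36. It rose by 2.69 ± 0.27 (SE, adjusted p = 0.000193) to a level above Joyau. Ta.7999.2.S1_a_at, of the same designed sequence but not a member, was lower in Joyau, at a mean of 5.83 against 8.90 in Ae36. It averaged 7.75 in S0_36 and 7.71 in mix36. Ta.7999.1.S1_at, Ae-high, was at 9.64 and 9.22 in S0_36, against 10.35 and 10.41 in mix36, 3.81 and 3.88 in Joyau and 11.25 and 11.18 in Ae36. Its difference was -0.95 ± 0.26 (SE, adjusted p = 0.0355), and without S0_36 replicate 9 the adjusted p was 0.152. In 5 clusters the calls were rises on the Joyau-high side and falls on the Ae-high side: Ta.10329, Ta.23366, Ta.3358, Ta.7252 and Ta.7999, of which Ta.10329 and Ta.3358 were picked after their values were seen. Without S0_36 replicate 3 this count was 2 (Ta.23366 and Ta.7999), and without S0_36 replicate 9 it was 0, since the Ae-high fall was lost in each of the 5, with adjusted p-values of 0.0955 in Ta.10329 and 0.153 in Ta.3358. In Ta.7378 the Joyau-high side held rises and falls beside an Ae-high fall. In 19 clusters calls came from Ae-high falls alone, in 14 from Joyau-high rises alone and in 1 from Joyau-high falls alone, and 25 had no call.

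Ta.23366 and Ta.7252 had the same opposite movement. Ta.23366.3.A1_at, Joyau-high, was at 8.20 and 8.43 in S0_36, against 5.31 and 5.39 in mix36 and 6.90 and 6.63 in Joyau. It rose by 2.96 ± 0.46 (SE, adjusted p = 0.00217). Ta.23366.2.S1_at, Ae-high, was at 9.88 and 9.65 in S0_36 and 10.79 and 10.81 in mix36, a difference of -1.04 ± 0.22 (SE, adjusted p = 0.0127). Without S0_36 replicate 9 its adjusted p was 0.0636. Ta.7252.3.S1_at, Joyau-high, was at 6.76 and 6.71 in S0_36 and 4.99 and 4.97 in mix36, and rose by 1.76 ± 0.30 (SE, adjusted p = 0.00398). Ta.7252.2.S1_at, Ae-high, was at 5.98 and 6.07 in S0_36 and 6.94 and 6.96 in mix36. Its difference of -0.93 ± 0.27 (SE, adjusted p = 0.0464) was lost without S0_36 replicate 3 (adjusted p = 0.149) or replicate 9 (0.108). The S0_36 and mix36 arrays did not overlap on any of these probe sets.

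Among the Ae-high falls that held with each array left out was a probe set at the level of its low parent. Ta.7378.3.S1_at was at 3.21 and 3.15 in S0_36, against 6.10 and 6.0 in mix36, 3.13 and 2.78 in Joyau and 7.01 and 5.69 in Ae36. It fell by 2.87 (SE 0.48, adjusted p = 0.00331). Ta.7401.2.S1_at was at 6.89 and 6.38 in S0_36 and 8.54 and 8.55 in mix36, a difference of -1.91 ± 0.35 (SE, adjusted p = 0.00546). Its Joyau arrays read 3.48 and 2.89, so S0_36 lay between the parents. Ta.7012.1.S1_at was at 4.98 and 4.76 in S0_36 and 6.69 and 6.78 in mix36, a difference of -1.86 ± 0.34 (SE, adjusted p = 0.00582).

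Falls of Joyau-high members in S0_36 came from Ta.7378 and Ta.23833. Ta.7378.28.S1_x_at was at 3.99 and 3.92 in S0_36, against 7.02 and 7.08 in mix36, 8.32 and 8.25 in Joyau and 3.28 and 2.08 in Ae36. It fell by 3.09 (SE 0.54, adjusted p = 0.00425). Ta.23833.2.S1_x_at was at 10.03 and 9.41 in S0_36, against 11.84 and 11.85 in mix36 and 12.58 and 12.65 in Joyau, a difference of -2.12 ± 0.40 (SE, adjusted p = 0.00615). The Ae-high member of that cluster, Ta.23833.3.S1_x_at, had -0.76 ± 0.42 (SE, adjusted p = 0.279) and did not pass. Ta.23833 thus moved away from Joyau in its balance, opposite to Ta.7999.

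In the cross with accession 54, 13 of the 101 Joyau-high members were higher in S0_54 than in mix54 and 6 lower, against 3.99% higher and 5.65% lower of all tested. Of the 83 Ae-high members, 11 were higher and 16 lower. The median difference was 0.12 on the Joyau-high side and -0.42 on the Ae-high side, beside -0.06 over all tested. In other clusters 4.8% of Joyau-high probe sets were higher and 13.3% lower, with a median of -0.13. Ae-high probe sets of other clusters were higher in 13.5% and lower in 11.6%, with a median of -0.18. The 46 calls became 29 when S0_54 replicate 3 was left out and 25 when replicate 4 was. With each array left out, 7 of the 13 rises and 1 of the 6 falls held on the Joyau-high side, and 8 of the 11 rises and 3 of the 16 falls on the Ae-high side.

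The level of mix54 itself stands beside these counts. From the parents' linear means a 1:1 mix was computed for each member. Mix54 was 1 or more below it for 15 of 83 Ae-high probe sets (18.1%), against 6.71% of all tested, with a lowest value of -4.29. For mix36 this number was 0, with a lowest value of -0.91. In the other direction, mix54 was 1 or more above the computed mix for 6 of 83 Ae-high probe sets and mix36 for 3. Of all 18189 tested, 513 and 185 were. The highest values were 1.64 in mix54 and 1.38 in mix36. The former was of Ta.13199.3.S1_at, called lower in S0_54 than in mix54, where S0_54 differed by -0.11 from the computed mix. Ta.3249.1.S1_at, Ae-high, was at 7.35 and 7.31 in mix54, with 7.68 and 6.96 in Joyau and 12.54 and 12.18 in Ae54, so the mix read at the level of its Joyau part. Ta.6572.2.S1_at, Ae-high, was at 6.05 and 6.25 in mix54, with 3.28 and 3.01 in Joyau and 11.54 and 11.33 in Ae54. Why these readings lay below a computed mix was not tested. On the Joyau-high side both mixes were within 1 of the computed mix for all 101 members, with medians of -0.14 in mix36 and 0.35 in mix54. Medians on the Ae-high side were 0.345 in mix36 and 0.02 in mix54.

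Rises of Ae-high members in S0_54 included those probe sets. Ta.3249.1.S1_at was at 12.02 and 11.93 in S0_54 and rose by 4.64 ± 0.37 against mix54 (SE, adjusted p = 5.37e-05). Against the computed 1:1 mix S0_54 differed by 0.57. Ta.6572.2.S1_at, a probe set of LOC606328, was at 10.25 and 10.25 in S0_54 and rose by 4.10 ± 0.77 (SE, adjusted p = 0.00832, and 0.052 without the filter on low values). Against the computed mix it differed by -0.19. Of the 11 rises on this side, 2 were of members called lower in S0_36 than in mix36, Ta.1147.1.A1_at and Ta.21419.2.S1_at. Against the computed 1:1 mix S0_54 differed by -0.90 and -0.09 on these probe sets. Ta.1147.1.A1_at was at 7.79 and 7.60 in S0_54 and 5.81 and 5.78 in mix54 (1.90 ± 0.33, SE, adjusted p = 0.00513). In cross 36 it was at 7.21 and 7.78 in S0_36 and 8.63 and 8.60 in mix36, and its difference of -1.12 ± 0.33 (SE, adjusted p = 0.0468) was lost without S0_36 replicate 3 (adjusted p = 0.202). For Ta.21419.2.S1_at the difference was 1.36 ± 0.28 in cross 54 (SE, adjusted p = 0.0141, and 0.0809 without S0_54 replicate 4). In cross 36 it was -1.04 ± 0.28 (SE, adjusted p = 0.0374), with 0.156 without S0_36 replicate 3 and 0.0592 without replicate 9.

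Of the 13 Joyau-high members that rose in cross 54, 12 had also risen in cross 36. Ta.28394.1.S1_s_at was at 13.64 and 13.66 in S0_54, against 9.47 and 9.47 in mix54, and rose by 4.18 ± 0.60 (SE, adjusted p = 0.00192). Ta.30807.1.S1_at was at 13.63 and 13.68 in S0_54, against 9.66 and 9.66 in mix54, and rose by 3.99 ± 0.35 (SE, adjusted p = 9.77e-05). Ta.920.3.S1_at was at 8.47 and 8.94 in S0_54, against 5.83 and 6.10 in mix54, and rose by 2.74 ± 0.45 (SE, adjusted p = 0.00409). As in S0_36, these members lay above Joyau. Ta.7999.2.S1_at was at 8.60 and 8.27 in S0_54, against 6.94 and 6.81 in mix54, and rose by 1.56 ± 0.27 (SE, adjusted p = 0.00576). Of the probe sets that share a designed sequence with these, Ta.7999.2.S1_a_at averaged 7.46 in S0_54 and 7.80 in mix54. Ta.28394.1.S1_a_at averaged 12.16 in S0_54 and 11.21 in mix54.

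Across both crosses, 12 Joyau-high members were called higher and 3 lower in each, and 9 Ae-high members were called lower in each, against 1.89% higher in both and 2.35% lower in both of all tested. With each array left out, 6 of the 12, 0 of the 3 and 3 of the 9 held in both crosses. The mixes are separate samples, though both hold Joyau RNA. Ta.7378.3.S1_at was at 3.40 and 3.62 in S0_54, against 6.49 and 6.60 in mix54, and fell by 3.04 (SE 0.48, adjusted p = 0.00324). In both crosses it was thus near Joyau, its low parent. Ta.7401.2.S1_at and Ta.7012.1.S1_at fell by 1.87 and fell by 1.84 in cross 54 (adjusted p = 0.00825 and 0.00825). The plot of synthetic minus mix in both crosses shows both sides, with the Ae-high members mostly below 0 in cross 36 and spread to both sides of 0 in cross 54.

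**Figure D3:**
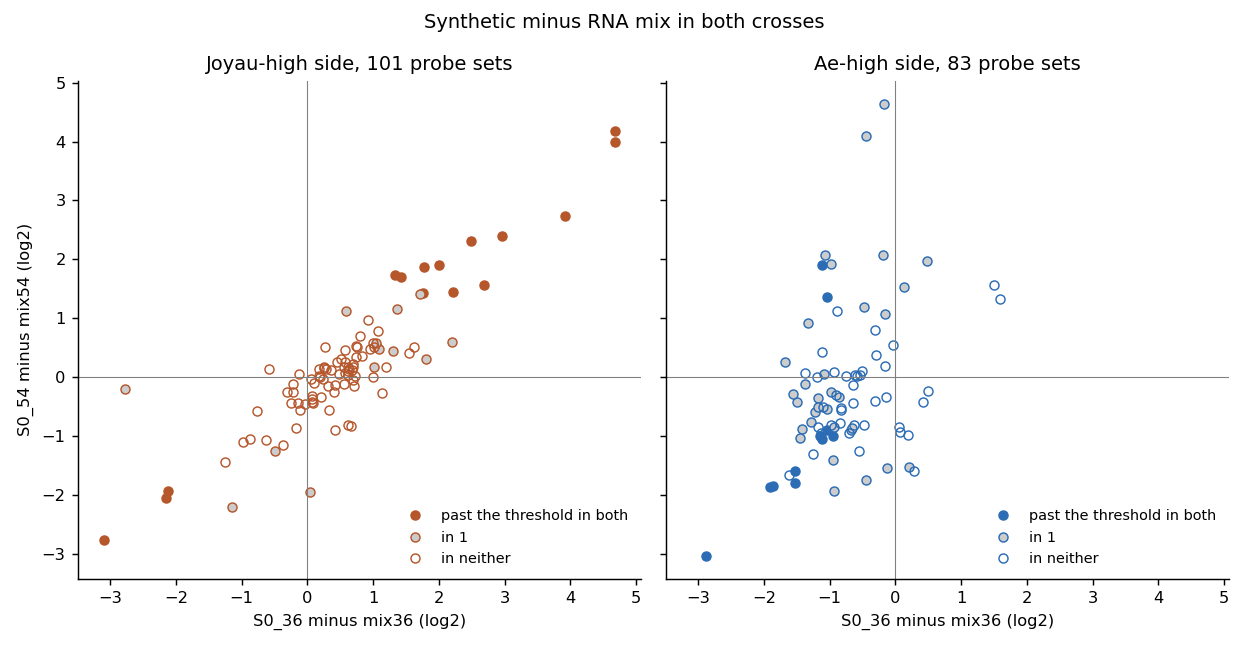
Log2 difference of synthetic minus RNA mix for each member, cross 36 on the x axis and cross 54 on the y axis, for 101 Joyau-high and 83 Ae-high probe sets. Fill marks members past the threshold in both crosses, in 1 or in neither, and the highest Ae-high points on the y axis are Ta.3249.1.S1_at at 4.64 and Ta.6572.2.S1_at at 4.10.

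The difference between the crosses was tested in the same fit, as the S0_36 minus mix36 difference minus the S0_54 minus mix54 difference. On the Ae-high side 9 of 83 members passed, all lower in cross 36, against 0.874% lower and 1.6% higher of all tested. On the Joyau-high side 1 of 101 passed, lower in cross 36. Higher in cross 36 were 0 members of either side, while limma counted 6 Joyau-high and 4 Ae-high members at an unadjusted p under 0.05. Among Ae-high probe sets of other clusters 8.95% were lower and 2.14% higher. Ta.3249.1.S1_at had the largest difference of the members that passed, -4.82 ± 0.52 (SE, adjusted p = 0.00152). Its mix54 value was -4.07 from the computed mix and its mix36 value 1.11. The 10 calls became 6 without S0_54 replicate 3.

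The Joyau-high exception was Ta.7378.35.S1_x_at, a probe set of LOC543184. It was at 3.74 and 2.96 in S0_36 and 6.23 and 6.62 in S0_54, against 6.02 and 6.23 in mix36 and 6.63 and 6.62 in mix54. S0_36 was near Ae36, at 3.41 and 4.26, while S0_54 was near mix54. It fell by 2.77 in S0_36 (SE 0.40, adjusted p = 0.00142). S0_54 minus mix54 was -0.19 ± 0.40 (SE, adjusted p = 0.865) for this member. The difference between the crosses was -2.58 ± 0.56 (SE, adjusted p = 0.0395). It was lost without S0_36 replicate 9 (adjusted p = 0.0853), S0_54 replicate 3 (0.0688) or S0_54 replicate 4 (0.123). The cluster's other probe sets of LOC543184 are not members and averaged only 2.08 to 4.11 in the 9 groups.

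In generation 1 of cross 54, S1_54 plants were set against the same mix54, so these results share their comparison sample with those of S0_54. Of the Joyau-high members 11 were higher and 16 lower, and of the Ae-high members 11 higher and 27 lower, against 6.53% higher and 14.1% lower of all tested. Medians were -0.06 and -0.64, beside -0.27 over all tested. In other clusters 6.77% of Joyau-high probe sets were higher and 22.3% lower, and of Ae-high probe sets 12.5% were higher and 25.6% lower. The S1_54 arrays also differed from those of S0_54 and mix54 in control probe sets. The 18S rRNA control read 8.56 and 7.90 in S1_54, against 5.50 and 4.14 in S0_54 and 4.89 and 4.97 in mix54. Among the parental arrays it read 8.15 on Ae36 replicate 2 and 7.48 on Joyau replicate 2. The part of these control readings in the results was not tested. After centring each array on its median, which moved the median of all tested to -0.01, the share of members' calls that were higher was 49.2% in place of 33.8%. Without S1_54 replicate 5 the 65 calls became 41.

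Several members that passed in S0_54 also passed in S1_54. Ta.30807.1.S1_at was at 13.97 and 13.78 in S1_54 and was higher than mix54 by 4.21 ± 0.35 (SE, adjusted p = 6.53e-05). Ta.28394.1.S1_s_at was at 13.45 and 13.51 and higher by 4.01 ± 0.60 (SE, adjusted p = 0.00196). Ta.3249.1.S1_at was at 10.53 and 11.30 and higher by 3.58 ± 0.37 (SE, adjusted p = 0.000287). Against the computed 1:1 mix S1_54 differed by -0.49 on this probe set, with mix54 itself at -4.07 from that mix. Ta.7378.28.S1_x_at was at the level of its low parent, at 3.34 and 4.07 in S1_54, against 7.71 and 7.67 in mix54 and 3.28 and 3.29 in Ae54. It fell by 3.98 (SE 0.54, adjusted p = 0.00117).

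Between the generations, S1_54 against S0_54, 17 of the 184 members passed, beside 9.14% of all tested in either direction. Of the Joyau-high members 1 was higher and 8 lower, and of the Ae-high members 1 higher and 7 lower, against 4.06% higher and 5.08% lower of all tested. Medians were -0.24 and -0.32, beside -0.22 over all tested, and centring on array medians moved the last to -0.03. In other clusters 4.29% of Joyau-high probe sets were higher and 7.86% lower, and of Ae-high probe sets 2.27% were higher and 9.08% lower. Of the 17 calls of members 0 held with every array left out. Without S1_54 replicate 5 or without S0_54 replicate 3, limma called 0 members, with 25 and 36 at an unadjusted p under 0.05, and without S0_54 replicate 4 it called 3. Ta.23807.4.S1_s_at, Joyau-high, was at 5.68 and 5.76 in S1_54, against 7.71 and 7.29 in S0_54, and differed by -1.78 ± 0.31 (SE, adjusted p = 0.00932). Leaving out S1_54 replicate 5 gave an adjusted p of 0.0831, and leaving out S0_54 replicate 3 gave 0.0829. Ta.7252.3.S1_at was at 5.10 and 5.50 in S1_54 and 6.81 and 6.89 in S0_54, which gave -1.55 ± 0.25 (SE, adjusted p = 0.00656), with 0.0753 and 0.0549 under the same omissions. The arrays of the generations did not overlap on either probe set.

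Courtot was compared with the mean of both mixes, which hold RNA of the lines named above and not of Courtot's own ancestors. Of the Joyau-high members 21 were higher and 17 lower, and of the Ae-high members 2 were higher and 39 lower, against 7.3% higher and 9.72% lower of all tested. Medians were 0.15 and -0.73, beside -0.09 over all tested. In other clusters 10.6% of Joyau-high probe sets were higher and 20.2% lower, and of Ae-high probe sets 7.69% were higher and 29.9% lower. In 7 clusters the calls were rises on the Joyau-high side and falls on the Ae-high side, among them Ta.23366, Ta.30807, Ta.7401 and Ta.7999. Without Courtot replicate 1 this count was 3, with Ta.23366 and Ta.30807 among them and Ta.7401 and Ta.7999 not (adjusted p = 0.135 and 0.0789 on the lost side). Without Courtot replicate 1 the 79 calls became 47, and the Ae-high falls became 15. With each array left out, 17 of the 21 rises and 13 of the 17 falls held on the Joyau-high side, and 1 of the 2 rises and 15 of the 39 falls on the Ae-high side.

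Ta.30807 had the largest change in balance of any cluster in this comparison. Ta.30807.3.S1_at, Ae-high, was at 4.07 and 4.08 in Courtot, against 13.14 and 13.16 in mix36, 11.83 and 11.74 in mix54, 3.25 and 3.33 in Joyau and 13.30 to 14.01 in Ae36 and Ae54. Courtot was within 1 of Joyau and far below the synthetic arrays, at 13.10 to 13.32. The difference from the mixes was -8.39 ± 0.19 (SE, adjusted p = 4.27e-09) and that from the synthetics -9.18 ± 0.16 (SE, adjusted p = 3.25e-10). Ta.30807.1.S1_at, Joyau-high, was at 13.08 and 13.47 in Courtot and rose by 3.89 ± 0.29 against the mixes (SE, adjusted p = 5.22e-06), as it had in the synthetics. The remaining probe set of the cluster, Ta.30807.2.S1_s_at, averaged 12.88 in Courtot, 11.60 to 11.72 in the synthetics, 10.83 in mix36 and 9.63 in mix54. In Courtot the cluster thus gave a bright signal on 2 of its 3 probe sets.

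**Figure D4:**
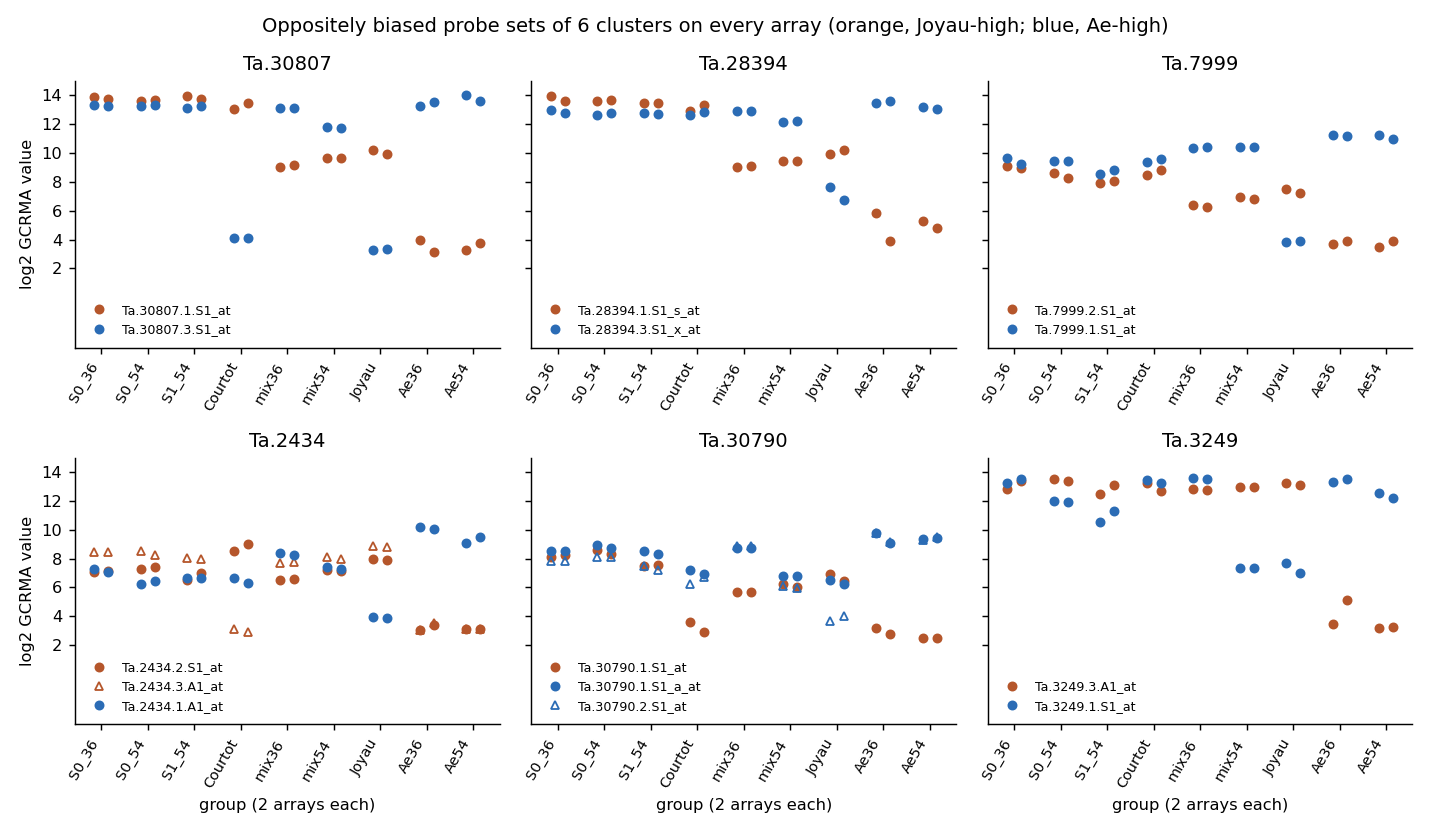
Log2 GCRMA values of the members of 6 clusters on all 18 arrays (2 points per group), Joyau-high in orange and Ae-high in blue. In Ta.30807, Ta.28394 and Ta.7999 the Joyau-high probe sets lie above Joyau in every hexaploid group, in Courtot the Ae-high probe set of Ta.30807 is at 4.07 and 4.08, and in mix54 that of Ta.3249 is at 7.35 and 7.31.

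Against the mean of the 3 synthetic groups, Courtot showed no common shift of a side: 11 Joyau-high members were higher and 18 lower, and 13 Ae-high members were higher and 12 lower, against 14.5% higher, 11.9% lower and 26.4% in either direction of all tested. Medians were -0.00 and 0.02. The 54 calls became 24 without Courtot replicate 1. Single members differed by far more. Ta.2434.3.A1_at, Joyau-high, was at 3.09 and 2.93 in Courtot, against 7.97 to 8.54 on the synthetic arrays, with 3.03 to 3.56 on the Ae arrays. Courtot lay at the level of the low parents, and the difference was -5.28 ± 0.17 (SE, adjusted p = 6.8e-09). The other Joyau-high member of that cluster, Ta.2434.2.S1_at, went the other way: it was at 8.49 and 8.98 in Courtot, against 6.50 to 7.38 in the synthetics, and rose by 1.67 ± 0.19 (SE, adjusted p = 0.000122).

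Ta.22966 and Ta.30790 also had Joyau-high members near their low parents in Courtot. Ta.22966.3.S1_at was at 3.22 and 2.67 in Courtot, against 5.98 to 7.80 in the synthetics, a difference of -3.90 ± 0.41 (SE, adjusted p = 6.38e-05). Ta.22966.3.S1_x_at, of the same designed sequence, was at 2.0 and 2.32, against 5.08 to 5.30, a difference of -3.0 ± 0.16 (SE, adjusted p = 3.18e-07). Ta.22966.2.S1_at, Ae-high, was at 8.40 and 8.36 in Courtot, against 7.21 to 7.92 in the synthetics, and rose by 0.81 ± 0.16 (SE, adjusted p = 0.00454). In Ta.22966 the sides thus moved in opposite directions. Ta.30790.1.S1_at, Joyau-high, was at 3.59 and 2.91 in Courtot, against 7.49 to 8.58 in the synthetics, a difference of -4.79 ± 0.22 (SE, adjusted p = 1.03e-07). Its Ae-high members differed by -1.53 ± 0.20 for Ta.30790.1.S1_a_at and -1.29 ± 0.21 for Ta.30790.2.S1_at (SE, adjusted p = 0.000329 and 0.00186), so both sides of Ta.30790 were lower in Courtot.

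Members on the same side of a cluster were not always alike. Ta.7378.36.S1_at was at 2.59 and 2.56 in Courtot, against 4.85 to 6.91 in the synthetics, a difference of -3.60 ± 0.33 (SE, adjusted p = 2.09e-05). Ta.7378.13.S1_at, Joyau-high in the same cluster, was at 8.88 and 9.12 in Courtot and 8.56 to 8.95 in the synthetics, a difference of 0.24 ± 0.18 (SE, adjusted p = 0.338). Ta.608.3.S1_at was at 3.91 and 3.91 in Courtot, against 6.55 to 8.50 in the synthetics, a difference of -3.60 ± 0.31 (SE, adjusted p = 1.6e-05). Ta.608.2.S1_a_at, Joyau-high as well, was at 6.66 and 7.47 in Courtot and did not pass (-0.62 ± 0.27, SE, adjusted p = 0.112).

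Higher levels in Courtot than in the synthetics were found in Ta.23807 and Ta.1457. Ta.23807.4.S1_s_at, Joyau-high, was at 10.09 and 10.69 in Courtot, against 5.68 to 7.71 in the synthetics and 8.11 and 7.60 in Joyau. It rose by 3.54 ± 0.25 (SE, adjusted p = 3.09e-06), while Ta.23807.6.A1_at, the Ae-high member, had 0.30 ± 0.13 and did not pass (SE, adjusted p = 0.125). In Ta.1457 both sides were higher in Courtot. Ta.1457.1.S1_s_at (LOC542992), Joyau-high, was at 9.31 and 10.51 in Courtot, against 7.07 to 9.12 in the synthetics, and rose by 2.07 ± 0.33 (SE, adjusted p = 0.00142). Ta.1457.2.S1_at (LOC100037538), Ae-high, was at 8.87 and 9.66 in Courtot, against 6.77 to 8.78 in the synthetics, and rose by 1.51 ± 0.25 (SE, adjusted p = 0.00173).

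Set against the parents, 11 Joyau-high members in Courtot were within 1 of their low parent, beside 1 in S0_36, 0 in S0_54 and 2 in S1_54. For Courtot, which does not descend from these lines, the higher of Ae36 and Ae54 was taken as the low parent. Each synthetic was set against its own diploid parent alone, so the bar was looser for Courtot. The 11 in Courtot came from Ta.22966, Ta.2434, Ta.30790, Ta.5052, Ta.5257, Ta.608 and Ta.7378. On the Ae-high side this number was 3 in Courtot (Ta.30790.1.S1_a_at, Ta.30807.3.S1_at and Ta.7378.3.S1_at), 1 in S0_36, 1 in S0_54 and 2 in S1_54, and Ta.7378.3.S1_at was among them in all 4 groups. The RNA mixes had such members too on the Ae-high side: 2 in mix54 (Ta.30790.1.S1_a_at and Ta.3249.1.S1_at) and 0 in mix36. On the Joyau-high side both mixes had 0. At the other end, 9 Joyau-high members in S0_36, 10 in S0_54, 4 in S1_54 and 9 in Courtot were 1 or more above their high parent, against 0 in either mix, and 0 Ae-high members were in any of these groups. Ta.23362.1.S1_x_at, Ta.28394.1.S1_s_at, Ta.30807.1.S1_at and Ta.920.3.S1_at were so in all 4 hexaploid groups. These counts use the parental values and are a description.

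Of the members, 10 have a gene identifier, with 9 identifiers among them, to which the probe table assigns no function here. In Ta.6572 both members belong to LOC606328. Ta.6572.1.S1_at, Joyau-high, was at 9.82 and 10.99 in S0_36 and 10.81 and 10.68 in S0_54, against 9.82 and 9.85 in mix36 and 10.28 and 10.26 in mix54, and passed in none of the comparisons (adjusted p = 0.574 or more in each). Ta.6572.2.S1_at, Ae-high, was at 8.75 and 10.62 in S0_36 and 10.18 and 10.09 in mix36, a difference of -0.45 ± 0.77 (SE, adjusted p = 0.773). The S0_36 plants differed from each other on both probe sets, with plant 3 lower. Of the further probe sets of this identifier, Ta.6572.1.S1_a_at averaged 9.33 to 11.62 in the 9 groups and Ta.6572.3.S1_at 2.71 to 3.59.

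In Ta.274, Ta.274.2.S1_at (LOC543056), Joyau-high, was at 6.62 and 7.01 in S0_36 and 6.17 and 6.06 in mix36, and Ta.274.1.S1_at (LOC100037524), Ae-high, at 8.74 and 9.13 in S0_36 and 9.22 and 9.27 in mix36. Neither passed in any of the 7 comparisons. In Ta.28354, Ta.28354.4.S1_at, Joyau-high, was at 8.68 and 7.99 in S0_36, against 6.51 and 6.57 in mix36, and rose by 1.80 ± 0.31 (SE, adjusted p = 0.00391). Ta.28354.1.S1_at (LOC542994), Ae-high, was at 6.61 and 7.21 in S1_54, against 9.65 and 9.73 in mix54, and fell by 2.78 (SE 0.47, adjusted p = 0.00366). In Ta.25534, Ta.25534.2.S1_at (LOC100049038), Ae-high, was at 8.36 and 8.57 in S0_36, against 9.73 and 9.78 in mix36, a difference of -1.29 ± 0.25 (SE, adjusted p = 0.00714). Ta.25534.1.A1_at, Joyau-high, had -0.14 ± 0.25 and did not pass (SE, adjusted p = 0.782). In Ta.1868, Ta.1868.1.S1_x_at (LOC542814), Joyau-high, was at 4.40 and 6.65 in Courtot, against 7.13 to 8.43 in the synthetics, a difference of -2.04 ± 0.46 (SE, adjusted p = 0.00934) that was lost without Courtot replicate 1 (adjusted p = 0.0895).

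In Ta.304, Ta.5469 and Ta.975, whose weaker side was among the 8 with the largest bias, calls against the mixes came from the Ae-high side alone. In Ta.304, Ta.304.4.S1_at, Joyau-high, was at 9.31 and 9.26 in S0_36 and 9.52 and 9.48 in mix36, a difference of -0.21 ± 0.35 (SE, adjusted p = 0.758). Ta.304.1.S1_at, Ae-high, was at 7.52 and 7.23 in S0_36 and 8.92 and 8.88 in mix36, a difference of -1.52 ± 0.31 (SE, adjusted p = 0.0098, and 0.0503 without S0_36 replicate 9). In Ta.5469 the Joyau-high members had -0.32 and 0.19 in that comparison and did not pass. In Ta.975, Ta.975.2.S1_at, Ae-high, was at 10.85 and 9.36 in S1_54, against 7.68 and 7.67 in mix54, and rose by 2.43 ± 0.52 (SE, adjusted p = 0.0105, and 0.0507 without the filter on low values). Against the computed 1:1 mix S1_54 differed by 1.08, with mix54 itself at -1.35 from that mix. Ta.975.1.S1_a_at, Joyau-high, was at 12.52 and 11.05 in S1_54 and 11.19 and 11.22 in mix54 and did not pass (0.58 ± 0.57, SE, adjusted p = 0.514). In Courtot against the synthetics both sides of Ta.975 were called lower. In TaAffx.92707, TaAffx.92707.2.S1_at, Joyau-high, was at 5.64 and 5.45 in S1_54, against 7.61 and 7.70 in mix54, and fell by 2.11 (SE 0.31, adjusted p = 0.00178). Between the generations both sides of TaAffx.92707 were called lower.

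The sides were joined in 1 value per cluster, the mean change of its Joyau-high members minus the mean change of its Ae-high members. A positive value means that the balance of the cluster moved towards Joyau. In S0_36 against mix36 the median over 65 clusters was 1.64 (1.69 with plant 3 and 1.54 with plant 9), and 61 clusters were above 0. In S0_54 against mix54 it was 0.67 (0.66 and 0.70 by plant), with 49 above 0. In S1_54 against mix54 it was 0.62 (0.65 and 0.57), with 48 above 0, and in Courtot against the mixes 0.97 (0.92 on either array), with 46 above 0. The clusters ranged widely in each comparison. Ta.28394 had 4.71, 3.64, 3.47 and 3.65 in this order of comparisons, and Ta.30807 had 4.55, 2.47, 2.82 and 12.28. Ta.23833 had -1.39, -2.01, -2.74 and -0.48, and Ta.10389, picked after its values were seen, -1.04, -4.04, -4.18 and -2.43.

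**Figure D5:**
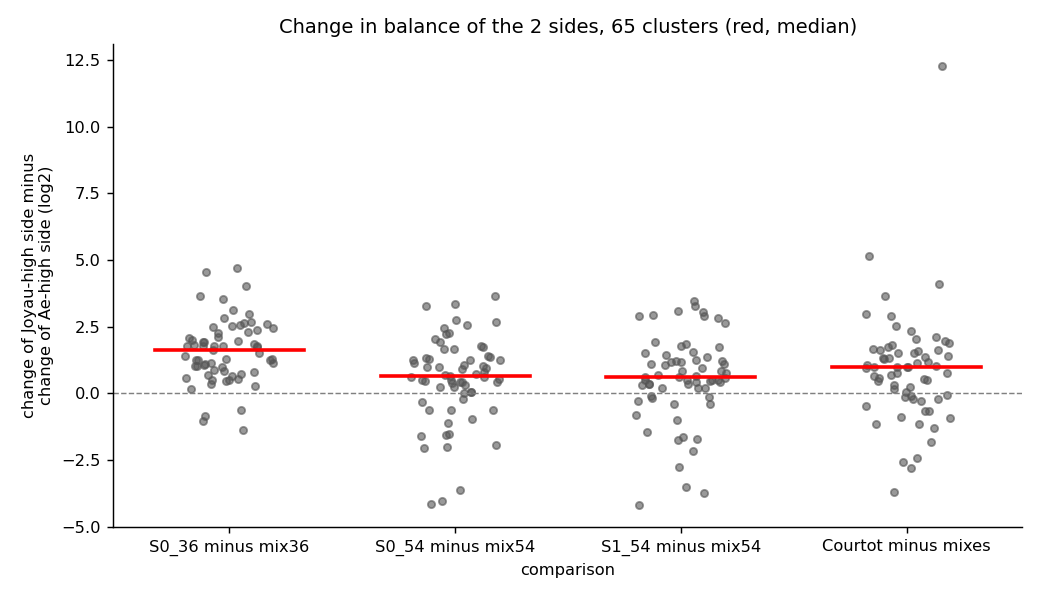
Change in the balance of the sides for each of 65 clusters (points) in 4 comparisons, with the median in red and 0 as a dashed line. The medians are 1.64, 0.67, 0.62 and 0.97 on the log2 scale, and the highest point, at 12.28 in Courtot, is Ta.30807.

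Against mixes computed from the parents, which use the arrays that chose the members, the median balance was 1.02 in S0_36, 0.89 in S0_54 and 1.01 in S1_54 at a ratio of 1:1, with 55, 58 and 58 of 65 clusters above 0. At a ratio of 2:1, with Joyau at double the weight of the diploid, it was 0.10, -0.02 and 0.08, with 36, 30 and 35 clusters above 0. The crosses were thus closer together against the computed 1:1 mix than against the hybridised mixes. In the synthetics the median shift towards Joyau held against an equal mix, hybridised or computed. It was at most 0.10 against a computed 2:1 mix. Single clusters still ranged at 2:1 from -2.15 to 3.36 in S0_36, -1.76 to 3.06 in S0_54 and -1.95 to 3.41 in S1_54. These values carry no test.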

How the data were processed

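Per the submitters' processing notes, the deposited log2 values came from GCRMA. They cover 61290 probe sets of the Affymetrix wheat array, 111 of them controls. Its version was not given in the sources used here. GCRMA corrects background by probe composition and normalizes between arrays, which compresses low values near a floor. Hybridised RNA amounts were 20 or 40 µg and 20 µg of labelled cRNA, per the labels' protocols. The RNA amount was 20 µg for Ae36 replicates 1 and 2 and Ae54 replicate 2, and 40 µg for all others, Joyau included. These arrays also had the fewest probe sets at 5 or more: 12822, 11895 and 12208 in this order. The RNA amount thus nearly follows the contrast of parents that chose the members, and its part in the bias was not tested.

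Testing covered the 18189 probe sets that reached 5 on 2 or more arrays and used limma 3.58.1 (R 4.3.3), 1 fit over all 9 groups with moderated variances (7 residual and 3.44 prior degrees of freedom). The mixes carry no biological replicates in the labels, and their arrays differed by an SD of 0.109 and 0.099, against 0.291 to 0.48 in the other groups, so each mix was averaged to 1 sample, which leaves 16 samples. The lone mix sample is assumed to vary like the other groups. P-values were Benjamini-Hochberg adjusted over all tested probe sets. They measure the spread between these samples. Joyau, Ae36 and Ae54 are in no tested contrast. The code was tested on simulated data. The number of arrays limits the precision.

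Clusters were named where a member has 1 gene symbol, where the weaker side's bias was among the 8 largest, where both sides passed in both S0 comparisons, or where a member was among the 3 largest of its side in the Courtot, generation, cross or shared S0 results. This gave 28 clusters. The members and lists, the marker list included, were chosen with earlier results of these data known. Gene symbols came from the platform's annotation, which can be old. No sequences are printed.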

Additional observations from a re-analysis of the deposited data

Results flagged for a closer look

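S0 minus mix differed between the crosses by limma's test of the difference for 10 members, and each was lower in cross 36 than in cross 54. Adjusted p-values are Benjamini-Hochberg values over all 18189 probe sets tested. On the Ae-high side these were Ta.3249.1.S1_at (-4.82, adjusted p = 0.00152), Ta.30790.2.S1_at (-3.13, 0.00585), Ta.1147.1.A1_at (-3.02, 0.00741), Ta.1147.1.A1_x_at (-2.90, 0.0094), Ta.21419.2.S1_at (-2.39, 0.0114) and Ta.11463.1.S1_at (-1.95, 0.0126), which passed with each array left out. Beside them, mix54 minus the computed 1:1 mix was -4.07 for Ta.3249.1.S1_at, -2.39 for Ta.30790.2.S1_at, -2.80 for Ta.1147.1.A1_at, -2.64 for Ta.1147.1.A1_x_at, -1.45 for Ta.21419.2.S1_at and -0.75 for Ta.11463.1.S1_at, while mix36 minus its computed mix was 1.11, 0.38, 0.46, 0.59, 0.74 and -0.10 in this order. For Ta.11463.1.S1_at these values were thus within 1 of 0 in both mixes. S0_36 minus its computed 1:1 mix was 0.93, -0.69, -0.66, -0.38, -0.29 and -1.79 in the same order. For S0_54 minus its computed 1:1 mix the values were 0.57, -0.32, -0.90, -0.71, -0.09 and -0.48. The part of the mix readings in the result was not tested.

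The other members of this kind were lost when 1 array was left out. Ta.30790.1.S1_a_at, Ae-high, differed by -2.26 (adjusted p = 0.018), with 0.0578 without S0_36 replicate 3 and 0.0626 without S0_54 replicate 3. Ta.10329.41.S1_x_at, Ae-high, differed by -2.24 (adjusted p = 0.026), with 0.0683 without S0_36 replicate 9. For cross 54 it was 0.0824 with replicate 3 left out and 0.064 with replicate 4 left out. Ta.23362.2.S1_at, Ae-high, differed by -1.68 (adjusted p = 0.0165), with 0.05 without S0_36 replicate 9 and 0.0626 without S0_54 replicate 3. Ta.7378.35.S1_x_at, the Joyau-high member among the 10, differed by -2.58 (adjusted p = 0.0395), with the losses given above.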

How the results depend on the processing

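With the mix arrays entered separately, which adds samples to the fit, the calls among members became 105 in S0_36 minus mix36, 78 in S0_54 minus mix54, 99 in S1_54 minus mix54, 31 in S1_54 minus S0_54 and 27 between the crosses, against 52, 46, 65, 17 and 10. Without the filter on low values, which adds probe sets to the adjustment, they became 33 in S0_36 minus mix36, 42 in S1_54 minus mix54 and 9 in S1_54 minus S0_54. The last became 10 after median centring, where 40% of its calls were higher (11.8% as reported and 23.1% after quantile normalization), and 40 with array weights; the cause was not tested. With 1 array left out, calls ranged from 27 to 53 in S0_36 minus mix36, 25 to 50 in S0_54 minus mix54, 41 to 65 in S1_54 minus mix54, 47 to 79 in Courtot minus mixes, 24 to 51 in Courtot minus synthetics, 0 to 12 in S1_54 minus S0_54 and 6 to 11 between the crosses. A threshold of 2 in place of 3 gave 115 clusters and one of 4 gave 37. The median balance was 0.66 to 0.70 in S0_54 and 0.92 in Courtot with 1 hexaploid array left out (chosen after seeing the data), and 0.97 in Courtot with the single most biased member per side. Of 179 calls of named members 79 were lost under some alternative, 76 of them with an array left out, and 0 reversed. Courtot and the mixes share replicate numbers: with the replicate block and separate mix arrays 95 members were called, against 96 without the block. Deviations of same-numbered samples correlated at -0.06 to 0.23, highest between Joyau and Ae54. With 1 difference per group these values cannot exclude a pairing, and the reported fit used no block.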
